A study of Mus musculus with 4 samples.

Results

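The primitive endoderm genes described here were 10 genes listed by name for what they are known to do: the transcription factor genes Gata4, Gata6, Sox17, Sox7 and Foxa2, the receptor gene Pdgfra, the endocytic adaptor gene Dab2, and the basement membrane genes Lama1, Lamb1 and Col4a1. These genes, like the other gene lists used below, were chosen with earlier results of these data known. All 10 of them were found among the 24116 genes of the count table, and all 10 were among the 14896 genes that had enough counts to be tested. The study asked how very short telomeres change mouse embryonic stem cells (ESCs), and RNA-seq compared G3 Terc-/- ESCs (line F35) with WT ESCs (line N12), 2 biological replicates of each. Both lines are of the C57BL/6 background and carry the generation label G3, and both were grown on feeder cells in medium with serum and leukaemia inhibitory factor (LIF). Terc encodes the RNA template of telomerase, and the G3 Terc-/- line was derived from blastocysts of G2 Terc-/- intercrosses. Since there was 1 ESC line per genotype, genotype and line cannot be told apart.

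Primitive endoderm is the layer of the blastocyst that forms beside the epiblast, from which ESCs are derived, and it later gives rise to the visceral and parietal endoderm of the yolk sacs. FGF4 made by epiblast cells acts through FGF receptors and ERK to favour GATA6 over NANOG, and GATA4, SOX17 and SOX7 follow GATA6 as the layer matures. The new layer carries the receptor PDGFRA, takes up proteins from its surroundings through megalin, cubilin and the adaptor DAB2, and secretes laminin and type IV collagen into a basement membrane. ESC cultures in serum and LIF are known to hold a few cells that express such genes. The libraries are bulk RNA of whole cultures, so fewer cells of a type and less RNA per cell cannot be told apart in any value below.

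Gene counts summed to between 18047995 and 22520017 per library. Levels are given as CPM (counts scaled to the library total) after TMM normalization, and 1 CPM stood for between 18.2 and 22.2 counts, so that genes near 1 CPM rested on few counts. The Terc count was 7 and 2 in WT, and it was 0 for either G3 Terc-/- library, which leaves room for up to 3. The chi-square between replicates was 2.41 per gene for WT and 3.60 for G3 Terc-/-, more than sampling noise gives. The ESC markers of the labelled cell type were abundant in every library. Pou5f1 lay at 932 and 934 CPM in WT and at 1209 and 1223 CPM in G3 Terc-/-, while Afp and Ttr, which mark mature visceral endoderm, had at most 4 counts in any library.

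Among the 10 genes, Gata6, Dab2, Gata4 and Col4a1 were lower in G3 Terc-/- ESCs, Lama1 was higher, and Sox17, Sox7, Foxa2, Pdgfra and Lamb1 did not pass the test. A gene passed at an adjusted p below 0.05 in edgeR's quasi-likelihood test, adjusted by Benjamini-Hochberg over all genes tested. Of all genes tested, 21.7% were called higher and 21.8% lower in this comparison, against 1 and 4 of these 10 genes. By the study's rule, a fold change over 2 at an unadjusted P below 0.05, 4.73% of all genes were higher and 3.13% lower, against 0 and 2 of the 10 genes, Gata6 and Dab2. The study applied these thresholds to Cufflinks values, whereas here they were applied to the edgeR fold changes and P values. The CPM of both G3 Terc-/- libraries lay above both WT libraries for 35.5% of all genes and below both for 34.9%, against 1 and 6 of the 10. The median log2 fold change was -0.44 over the 10 genes and 0.01 over all genes tested.

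**Figure D1:**
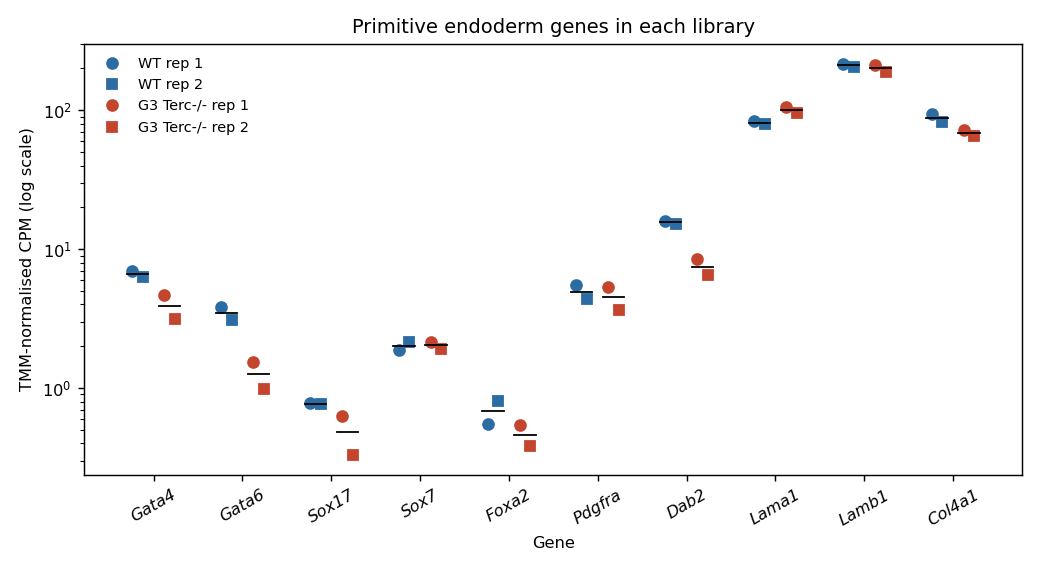
TMM-normalised CPM (vertical log axis) of the 10 primitive endoderm genes (horizontal axis) in each of the 4 libraries, blue for WT and red for G3 Terc-/-, circles for replicate 1, squares for replicate 2 and short black lines for the mean of the 2 libraries. Both red points of Gata4, Gata6, Dab2 and Col4a1 sit below both blue points, those of Lama1 sit above, and those of Sox7, Pdgfra and Lamb1 overlap with blue.

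The 5 transcription factor genes were expressed at low levels, and Gata6 and Gata4 were the ones called lower. Gata6 (gene identifier 14465, GRCm38 chr18:11052064-11085635, plus strand), the zinc finger factor that specifies primitive endoderm, had 84 and 68 counts in WT against 34 and 18 in G3 Terc-/-. These are 3.85 and 3.07 CPM in WT and 1.53 and 0.987 CPM in G3 Terc-/-, with no overlap between the genotypes. The mean was 3.46 ± 0.551 CPM in WT and 1.26 ± 0.387 CPM in G3 Terc-/- (SD, n = 2 each), a log2 fold change of -1.43 with a standard error (SE) of 0.27 and an adjusted p of 3.49e-05 in edgeR. Gata4 (14463, chr14:63198922-63271692, minus strand), which acts downstream of Gata6 and is often used as a marker of the committed layer, had 151 and 141 counts in WT against 103 and 57 in G3 Terc-/-. Its CPM was 6.91 and 6.36 in WT and 4.64 and 3.12 in G3 Terc-/-, again with both G3 Terc-/- libraries below both WT libraries. The mean of Gata4 fell from 6.64 ± 0.393 to 3.88 ± 1.08 CPM (SD, n = 2 each), a log2 fold change of -0.75 (SE 0.18, adjusted p 0.000794 in edgeR). Over the fits that left out 1 library, the log2 fold change ran from -1.81 to -1.17 for Gata6 and from -1.09 to -0.51 for Gata4, and both remained past the threshold. The antisense gene 1010001N08Rik overlaps 504 bases of Gata6 and had at most 4 counts in a library. The strand setting of the counting is not given in the sources used here.

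Sox17, Sox7 and Foxa2 are close to the lower limit of what these libraries measure. Sox17 (20671, chr1:4490931-4497354, minus strand), an HMG box factor of primitive and definitive endoderm, had 17 counts in each WT library and 14 and 6 in G3 Terc-/-. Its CPM of 0.779 and 0.767 in WT and 0.631 and 0.329 in G3 Terc-/- did not overlap, but the log2 fold change of -0.64 had a 95% interval from -1.59 to 0.30 (adjusted p 0.276 in edgeR). Foxa2 (15376, chr2:148042877-148046969, minus strand), a forkhead factor of visceral and definitive endoderm, had 12 and 18 counts in WT against 12 and 7 in G3 Terc-/-. The CPM was 0.550 and 0.812 against 0.541 and 0.384, so that the upper G3 Terc-/- library lay just under the lower WT library. The log2 fold change of Foxa2 was -0.53 with an interval from -1.51 to 0.44 (adjusted p 0.393 in edgeR). Sox7 (20680, chr14:63943673-63950732, plus strand), which marks parietal endoderm and early endothelium, had 41 and 48 counts in WT against 48 and 35 in G3 Terc-/-. Its CPM of 1.88 and 2.16 in WT and 2.16 and 1.92 in G3 Terc-/- overlapped almost fully. The log2 fold change of 0.02 (interval from -0.52 to 0.56, adjusted p 0.961 in edgeR) was negative without WT replicate 1 (-0.08). A change of Sox17 or Foxa2 as large as that of Gata4 lies within these intervals and was not detectable at this depth. An antisense gene, Gm37587, overlaps Sox17 and is not in the count table. Summed over the 5 factors, CPM was 14.0 and 13.2 in WT and 9.52 and 6.74 in G3 Terc-/-, and Gata4 and Gata6 supplied most of that sum in WT.

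The GATA, SOX and FOXA relatives of these factors were low as well. Of 11 listed relatives and cofactors of the factor, adaptor and receptor genes, 10 were tested, with a median log2 fold change of 0.25. Among them 3 were higher and 2 lower, against 21.7% and 21.8% of all genes tested. The 3 higher genes were not GATA, SOX or FOXA genes, and the 2 lower ones were Gata3 and Foxa3. Zfpm1, which encodes FOG1, a cofactor bound by GATA proteins, had 12.1 and 11.1 CPM in WT and 17.7 and 16.3 CPM in G3 Terc-/- and rose (log2 fold change 0.56, adjusted p 6.11e-05 in edgeR). Gata3, a trophectoderm factor, had 32 and 64 counts in WT against 22 and 20 in G3 Terc-/-, a log2 fold change of -1.06 (adjusted p 0.00787 in edgeR) that was -0.49 with an adjusted p of 0.434 without WT replicate 2. Foxa3, a forkhead factor of gut endoderm, had a log2 fold change of -1.11 (adjusted p 0.0260 in edgeR), and its adjusted p was 0.209 without WT replicate 1, 0.0876 without G3 Terc-/- replicate 1 and 0.135 without G3 Terc-/- replicate 2. With any of the 4 libraries left out, 1 relative was called lower. Gata5 had at most 3 counts in a library and was not tested, while Foxa1 (log2 fold change 0.87, adjusted p 0.0997) and Sox18 (-0.46, adjusted p 0.385) did not pass in edgeR.

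Pdgfra and Dab2, which are used to sort and to trace primitive endoderm, differed in their result. Pdgfra (18595, chr5:75152292-75198215, plus strand) encodes the receptor for PDGF-A, and its counts were 121 and 97 in WT against 119 and 67 in G3 Terc-/-. The CPM of 5.54 and 4.37 in WT and 5.37 and 3.67 in G3 Terc-/- overlapped, and replicate 1 was the higher library in both genotypes. The log2 fold change of Pdgfra was -0.12 with a 95% interval from -0.51 to 0.27 (adjusted p 0.659 in edgeR), and leaving out 1 library moved it between -0.44 and 0.12. Mir7025, which lies within Pdgfra on the same strand, had between 3 and 9 counts, and the antisense genes Gm42802 and Gm42803 overlap it as well.

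The other PDGF genes moved in both directions. Of the 5 listed ligands and receptors other than Pdgfra, all were tested, and their median log2 fold change was -0.29. Among them 2 were higher and 2 lower, against 21.7% and 21.8% of all genes tested. Pdgfa, whose product is the main ligand of PDGFRA in the blastocyst, had 26.6 and 27.6 CPM in WT and 41.9 and 41.5 CPM in G3 Terc-/- and rose (log2 fold change 0.62, SE 0.08, adjusted p 5.35e-09 in edgeR). Pdgfb, the ligand that also binds PDGFRB, had 4.21 and 4.51 CPM in WT and fell to 2.53 and 1.97 CPM (log2 fold change -0.94, adjusted p 0.000515 in edgeR). Pdgfrb, a receptor of fibroblasts and pericytes, had 3.85 and 2.39 CPM in WT and 6.31 and 4.49 CPM in G3 Terc-/- (log2 fold change 0.81, adjusted p 0.00181 in edgeR). The log2 fold change of Pdgfrb was 0.50 without WT replicate 2 and 0.52 without G3 Terc-/- replicate 1, with adjusted p of 0.0918 and 0.0986 in edgeR, so that 1 of the 5 genes was then called higher. Without WT replicate 2, 1 was called lower.

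Dab2 was the member with the smallest adjusted p. Dab2 (13132, chr15:6299788-6440712, plus strand) encodes the clathrin adaptor that carries megalin and cubilin into the cell and is needed for the layering of the endoderm. It had 351 and 336 counts in WT against 188 and 119 in G3 Terc-/-. The CPM was 16.1 and 15.2 in WT and 8.48 and 6.52 in G3 Terc-/-, with both G3 Terc-/- libraries far below WT. The mean was 15.6 ± 0.650 CPM in WT and 7.50 ± 1.38 CPM in G3 Terc-/- (SD, n = 2 each), a log2 fold change of -1.05 (SE 0.13, adjusted p 5.71e-09 in edgeR), and without 1 library it lay between -1.26 and -0.88. The antisense gene Gm16311 overlaps 6670 bases of the Dab2 locus, and Gm18888 overlaps it too.

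The 250 bases before the first annotated start of Dab2 are shown because this was the member with the smallest adjusted p, and because they hold a GATA factor motif, the letters that GATA4 and GATA6 are known to bind. The window is chr15:6299539-6299788 of GRCm38.p6, plus strand, from RefSeq, with the motif in capitals.
Dab2 promoter window: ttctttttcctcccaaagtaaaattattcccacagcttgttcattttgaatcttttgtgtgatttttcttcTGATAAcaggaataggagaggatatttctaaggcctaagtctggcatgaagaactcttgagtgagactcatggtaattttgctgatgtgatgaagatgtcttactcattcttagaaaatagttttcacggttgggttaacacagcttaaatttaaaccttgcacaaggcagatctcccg
The motif, TGATAA, begins 179 bases before the start. The letters searched on both strands were AGATAA and AGATAG, and the same with T in place of the first A, and 26.5% of the 32851 RefSeq windows of this length hold at least 1 of them. RefSeq windows were matched for 5 of the 10 genes, Foxa2, Pdgfra, Dab2, Lamb1 and Col4a1, in 8 windows, since a gene can have several starts. Of these 8 windows, 2 held the motif, the one shown and 1 of Foxa2. The window before a later start of Dab2 held none, and a match describes letters only.

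The cargo receptors that work with DAB2 were lower in G3 Terc-/- ESCs as well. Lrp2, which encodes megalin, had 1709 and 1570 counts in WT against 560 and 402 in G3 Terc-/-. Its CPM of 78.3 and 70.8 in WT and 25.3 and 22.0 in G3 Terc-/- was 3.14-fold lower (log2 fold change -1.65, SE 0.08, adjusted p 2.19e-21 in edgeR). Cubn, which encodes cubilin, had 20.5 and 15.6 CPM in WT and 5.14 and 4.60 CPM in G3 Terc-/-, and was 3.69-fold lower (log2 fold change -1.88, SE 0.14, adjusted p 8.05e-15 in edgeR). Amn, whose product anchors cubilin in the membrane, had 3.80 and 3.83 CPM in WT and 3.74 and 4.22 CPM in G3 Terc-/-. Its log2 fold change of 0.06 (SE 0.20) did not pass the test (adjusted p 0.846 in edgeR), and the genotypes overlapped.

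Of 26 listed visceral endoderm genes, to which Cubn, Lrp2 and Amn belong, 18 were tested, with a median log2 fold change of -0.06. Among them 4 were higher and 5 lower, against 21.7% and 21.8% of all genes tested. Apoe, an apolipoprotein gene, fell from 789 and 776 CPM in WT to 494 and 499 CPM in G3 Terc-/- (log2 fold change -0.66, adjusted p 2.03e-15 in edgeR) and made up most of the list's summed CPM, which was 1091 and 1070 in WT and 736 and 729 in G3 Terc-/-. Apob and Apoa2, apolipoprotein genes of the same tissue, rose, with log2 fold changes of 1.17 (adjusted p 0.000857) and 0.45 (adjusted p 7.76e-06) in edgeR. Hnf4a had at most 6 counts in a library and was not tested. Leaving out either WT library lowered the number called lower to 3, and leaving out WT replicate 2 lowered the number called higher to 2.

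**Figure D2:**
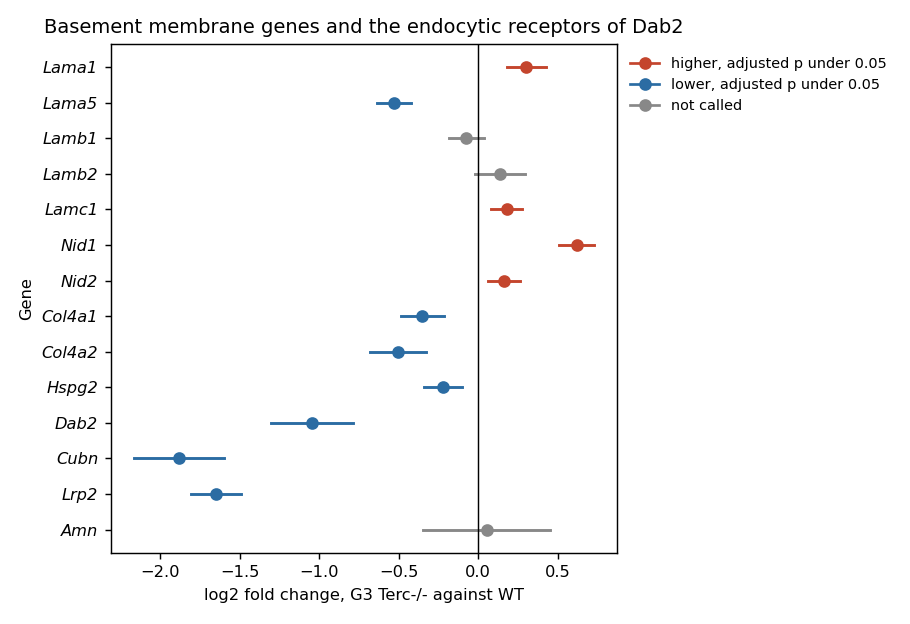
Log2 fold change of G3 Terc-/- against WT (horizontal axis) of basement membrane genes and of Dab2, Cubn, Lrp2 and Amn (vertical axis), points for the edgeR estimate from 2 libraries per genotype, bars for its 95% interval, red for genes called higher, blue for genes called lower and grey for genes not called. Dab2, Cubn and Lrp2 lie at -1.05 and below, Amn lies at 0.06, and the laminin genes lie on both sides of 0.

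The 3 basement membrane genes were by far the most abundant of the 10, and they did not move together. Lama1, Lamb1 and Lamc1 encode the alpha, beta and gamma chains of the main laminin trimer of the early embryo. Lama1 (16772, chr17:67697259-67822647, plus strand) had 83.1 and 79.5 CPM in WT and 105 and 95.1 CPM in G3 Terc-/-, with both G3 Terc-/- libraries higher. Its log2 fold change was 0.30 (SE 0.06, adjusted p 8.33e-05 in edgeR), and it kept this call with every library left out, between 0.22 and 0.37. Lamb1 (16777, chr12:31265234-31329644, plus strand) had 217 and 206 CPM in WT and 212 and 190 CPM in G3 Terc-/-, and the genotypes overlapped. The log2 fold change of Lamb1 was -0.07 with a 95% interval from -0.18 to 0.04 (adjusted p 0.281 in edgeR). Without G3 Terc-/- replicate 1 it was -0.16 and called lower (adjusted p 0.00570 in edgeR), and without G3 Terc-/- replicate 2 it was 0.00379. Lamc1 had 464 and 461 CPM in WT and 537 and 511 CPM in G3 Terc-/-, a log2 fold change of 0.18 (SE 0.05, adjusted p 0.00211 in edgeR) that missed the threshold without WT replicate 1 (adjusted p 0.0595) or without WT replicate 2 (adjusted p 0.0785).

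Col4a1 (12826, chr8:11198423-11312826, minus strand) encodes the alpha1 chain of type IV collagen, the network former of every basement membrane. Its CPM was 93.7 and 82.7 in WT and 72.6 and 65.4 in G3 Terc-/-, so that both G3 Terc-/- libraries were lower. The mean fell from 88.2 ± 7.76 to 69.0 ± 5.13 CPM (SD, n = 2 each), a log2 fold change of -0.35 (SE 0.07, adjusted p 3.08e-05 in edgeR), which ran from -0.44 to -0.26 without 1 library. Col4a2, whose alpha2 chain joins 1 trimer with the product of Col4a1, had 52.5 and 40.8 CPM in WT and 35.5 and 29.9 CPM in G3 Terc-/- and fell too (log2 fold change -0.51, SE 0.09, adjusted p 7.43e-06 in edgeR), though DESeq2 put its adjusted p at 0.0523. Col4a1 and Col4a2 lie head to head on opposite strands, and in the GRCm38 gene models their first exons overlap by 22 bases. These bases, chr8:11312805-11312826 of GRCm38 on the plus strand, are shown because reads from them could belong to either gene where strand is not used.
Shared start of Col4a1 and Col4a2: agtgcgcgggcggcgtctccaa
The minus-strand start of Col4a1 is the last base of this run and the plus-strand start of Col4a2 is the first. The antisense gene Gm15418 and the same-strand gene Gm44716 also overlap Col4a1. Summed over Lama1, Lamb1 and Col4a1, CPM was 394 and 368 in WT and 389 and 350 in G3 Terc-/-, and the genotypes overlapped.

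The other chains and linkers of the basement membrane went in both directions too. Of 20 listed partners, 16 were tested, 4 were higher and 5 lower, against 21.7% and 21.8% of all genes tested. Their median log2 fold change was 0.15. Nid1, which encodes nidogen, the link between laminin and type IV collagen, rose from 139 and 126 CPM in WT to 209 and 197 CPM in G3 Terc-/- (log2 fold change 0.62, SE 0.06, adjusted p 1.44e-12 in edgeR). Nid2, its relative, had 225 and 219 CPM in WT and 251 and 246 CPM in G3 Terc-/- (log2 fold change 0.16, adjusted p 0.00779 in edgeR, 0.0711 without WT replicate 1 and 0.183 without WT replicate 2). Lama5, the alpha chain of the laminin that ESCs themselves lay down, fell from 449 and 420 to 318 and 283 CPM (log2 fold change -0.53, SE 0.05, adjusted p 2.57e-11 in edgeR). Col18a1, a collagen of the basement membrane zone, fell as well (log2 fold change -0.38, adjusted p 1.18e-08 in edgeR), and Hspg2, which encodes perlecan, had a log2 fold change of -0.22 (adjusted p 0.00178 in edgeR, 0.283 in DESeq2, and 0.245 in edgeR without WT replicate 1). The beta chain gene Lamb2 had a log2 fold change of 0.14 (adjusted p 0.148 in edgeR), which was 0.21 and past the threshold without G3 Terc-/- replicate 2. The number of partners called higher was 2 without WT replicate 1, 1 without WT replicate 2 and 7 without G3 Terc-/- replicate 2, and the number called lower was 3 without WT replicate 1.

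Of 17 genes listed for the folding, modification and binding of collagen and laminin, all were tested, with a median log2 fold change of -0.04. Among them 2 were higher and 6 lower, against 21.7% and 21.8% of all genes tested. Plod2, a collagen lysyl hydroxylase gene, rose from 57.5 and 57.0 CPM in WT to 81.8 and 83.6 CPM in G3 Terc-/- (log2 fold change 0.53, adjusted p 3.64e-09 in edgeR). Dag1, which encodes dystroglycan, a laminin receptor, fell from 292 and 307 CPM to 199 and 201 CPM (log2 fold change -0.58, adjusted p 6.13e-13 in edgeR). Sparc, which encodes a collagen binding protein abundant in parietal endoderm, had 314 and 300 CPM in WT and 330 and 303 CPM in G3 Terc-/- and did not pass (log2 fold change 0.04, adjusted p 0.528 in edgeR). The number called lower was 1 without WT replicate 1, and the number called higher was 1 without WT replicate 2.

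The 16 listed parietal endoderm genes were all tested, with a median log2 fold change of -0.04. Among them 6 were higher and 6 lower, against 21.7% and 21.8% of all genes tested. Those that rose included Vim, an intermediate filament gene also strong in fibroblasts, from 166 and 135 to 321 and 277 CPM, and Fst, which encodes the activin inhibitor follistatin, with a log2 fold change of 1.03 (adjusted p 3.65e-08 in edgeR). Those that fell included the keratin genes Krt18, from 87.0 and 83.0 to 23.2 and 25.5 CPM, and Krt8, from 117 and 106 to 47.8 and 45.4 CPM. Pth1r, the parathyroid hormone receptor gene of parietal endoderm, fell from 3.71 and 4.15 to 1.35 and 1.48 CPM (log2 fold change -1.47, adjusted p 4.92e-06 in edgeR). The number called higher was 3 without either WT library.

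Compared per length of exon, as RPKM (reads per kilobase of exon, scaled to the library total), the genes of secreted proteins stood far above those of the factors. The mean RPKM in WT was 36.2 for Lamb1, 13.3 for Col4a1, 8.53 for Lama1, 2.99 for Dab2, 1.82 for Gata4, 1.07 for Gata6, 0.613 for Sox7, 0.566 for Pdgfra, 0.312 for Foxa2 and 0.189 for Sox17. Neighbours in this order did not overlap between their 2 WT libraries, apart from Sox7 and Pdgfra. In G3 Terc-/- ESCs the mean RPKM of Lama1, 10.5, and of Col4a1, 10.4, came level with overlapping libraries. Gata6 moved from sixth to eighth place, at 0.390 RPKM, under Sox7 at 0.619 and Pdgfra at 0.515. Lamc1 RPKM was above that of every member, at 60.7 in WT and 68.8 in G3 Terc-/-.

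The signals that feed into primitive endoderm fate were measured in the same libraries. Of 19 listed genes from FGF4 to the ERK targets, all were tested, with a median log2 fold change of -0.10. Among them 3 were higher and 7 lower, against 21.7% and 21.8% of all genes tested. Fgfr2, the FGF receptor that is raised in primitive endoderm, fell from 21.2 and 25.7 CPM in WT to 6.27 and 7.07 CPM in G3 Terc-/-, 3.53-fold lower (log2 fold change -1.82, SE 0.12, adjusted p 1.82e-16 in edgeR). Fgfr3 fell from 4.35 and 3.83 to 1.58 and 1.81 CPM (log2 fold change -1.28, adjusted p 2.29e-05 in edgeR). Fgfr1, the receptor shared by epiblast and primitive endoderm, had 110 and 104 CPM in WT and 105 and 96.5 CPM in G3 Terc-/- and did not pass (log2 fold change -0.09, adjusted p 0.240 in edgeR), but was -0.16 and past the threshold without G3 Terc-/- replicate 1 (adjusted p 0.0252). The ligand gene Fgf4 rose from 229 and 244 to 306 and 351 CPM (log2 fold change 0.47, adjusted p 1.65e-09 in edgeR). The ERK target genes did not move together. Etv5, Dusp4 and Dusp6 fell, with log2 fold changes of -0.73, -0.51 and -0.27, while Etv4 was at -0.02 (adjusted p 0.799 in edgeR). Mapk3, which encodes ERK1, fell with -0.52. Spry2, a feedback inhibitor, had 0.17 (adjusted p 0.00844 in edgeR), which was 0.13 without WT replicate 1, and Spry4 had 0.12. The number called higher was 1 without WT replicate 1.

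Nanog, the epiblast factor that opposes GATA6, had 410 and 408 CPM in WT and 889 and 900 CPM in G3 Terc-/- and rose (log2 fold change 1.13, SE 0.05, adjusted p 4.74e-23 in edgeR). It lies on chromosome 6 between 120 and 130 Mb, where 93 genes were tested and their median log2 fold change was 0.54, against 0.01 over all genes, and the part of that stretch in the Nanog value was not tested. Of the 14 listed ESC markers, all were tested, with a median log2 fold change of 0.43. Among them 12 were higher and 2 lower, against 21.7% and 21.8% of all genes tested. Tbx3, which is known to act in both self-renewal and primitive endoderm, rose from 116 and 121 to 394 and 436 CPM (log2 fold change 1.81, adjusted p 1.13e-27 in edgeR), and the 2 lower genes were Dppa5a (-0.79) and Utf1 (-0.32). Pou5f1 rose by a log2 fold change of 0.38.

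**Figure D3:**
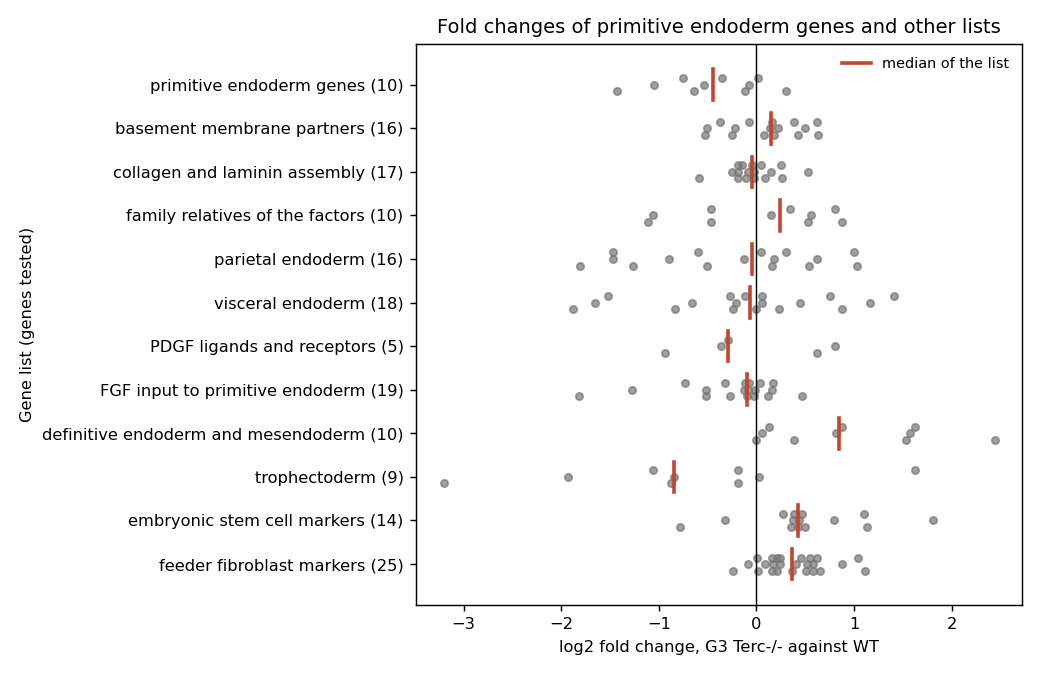
Log2 fold change of G3 Terc-/- against WT (horizontal axis) of each tested gene (grey points, 2 libraries per genotype) of the primitive endoderm genes and of the other gene lists (vertical axis, number tested in brackets), with a red line at the median of each list. The primitive endoderm genes have a median of -0.44 and the ESC markers a median of 0.43.

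Pdgfra, Lamb1 and Col4a1 are known to be expressed in fibroblasts too, and feeder fibroblast genes differed between libraries. Of 27 listed feeder fibroblast markers, 25 were tested, with a median log2 fold change of 0.37. Among them 10 were higher and 1 lower, against 21.7% and 21.8% of all genes tested. The summed CPM of the 27 markers was 1885 and 1539 in WT and 2618 and 2235 in G3 Terc-/-. Most of it came from Fn1, which encodes fibronectin, at 1138 and 1008 CPM in WT and 1696 and 1506 CPM in G3 Terc-/-. Fstl1, which encodes a secreted glycoprotein, had 122 and 109 CPM in WT and 246 and 252 CPM in G3 Terc-/-. Fn1 and Fstl1 were set aside after their values were seen, because they carried most of the difference in this sum. The sum over the other 25 markers was 625 and 423 CPM in WT and 676 and 477 CPM in G3 Terc-/-, and the genotypes overlapped. Since these genes were picked for their difference, that overlap cannot tell whether feeder content was alike. Among all tested feeder markers, 23 log2 fold changes were positive and 2 negative. The sums with and without Fn1 and Fstl1 were both higher in replicate 1 of both genotypes. Of the defining markers, Col1a1 had 60.6 and 35.5 CPM in WT and 63.8 and 43.0 CPM in G3 Terc-/-, which overlapped (log2 fold change 0.16, adjusted p 0.304 in edgeR). Col1a2 (0.21, adjusted p 0.184) and Postn (0.24, adjusted p 0.309) did not pass either in edgeR, though Col1a2 passed with no low-count filter (0.19, adjusted p 0.0301). Col1a1, Col1a2 and Postn were called higher without WT replicate 1 (0.59, 0.58 and 0.69) or without G3 Terc-/- replicate 2 (0.41, 0.49 and 0.50). Col3a1 (0.52, adjusted p 0.00246) and Thy1 (0.55, adjusted p 0.000805) passed in edgeR, but without G3 Terc-/- replicate 1 they were at 0.24 (adjusted p 0.204) and 0.19 (adjusted p 0.287), and without WT replicate 2 Col3a1 was at 0.27 (adjusted p 0.168). No defining marker was at 0 in any library. The number of feeder markers called higher was 19 without WT replicate 1 or without G3 Terc-/- replicate 2, 5 without WT replicate 2 and 4 without G3 Terc-/- replicate 1, and the number called lower was 0, 0, 3 and 3. The primitive endoderm genes were higher in replicate 1 than in replicate 2 for 8 of 10 genes in WT and for 10 of 10 in G3 Terc-/-, with CPM ratios from 0.677 to 1.27 and from 1.11 to 1.92. The part of feeder RNA in the values of the 10 genes was not tested.

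**Figure D4:**
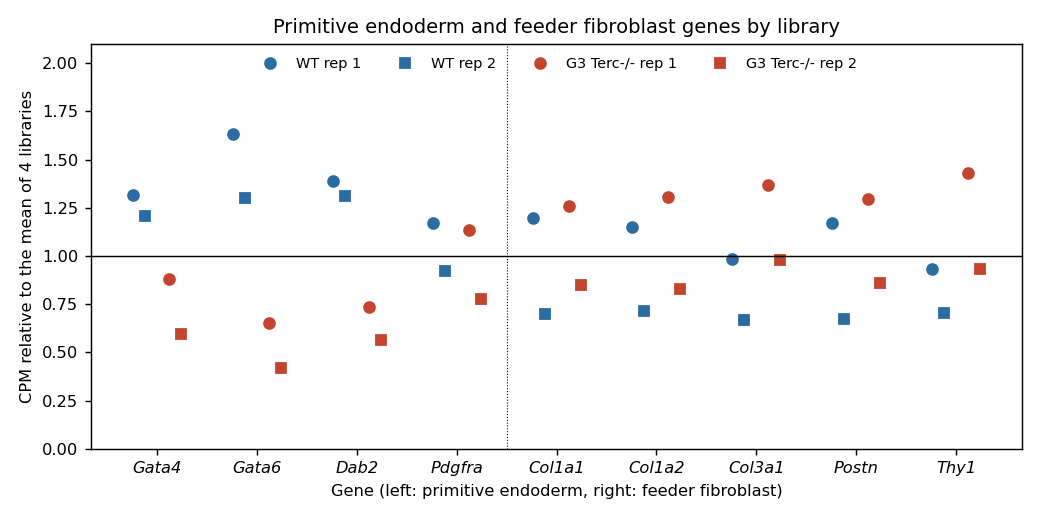
CPM of 4 primitive endoderm genes (left) and 5 feeder fibroblast genes (right) in each library, divided by the gene's mean over the 4 libraries (vertical axis), blue for WT and red for G3 Terc-/-, circles for replicate 1 and squares for replicate 2. Circles lie above squares of the same colour for each gene shown. Both red points lie below both blue ones for Gata4, Gata6 and Dab2, while the genotypes overlap for Pdgfra, Col1a1, Col1a2, Col3a1 and Postn.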

How the data were processed

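Poly(A) RNA of G3 Terc-/- and WT ESCs was sequenced, 2 libraries each. According to the submitters' processing notes the reads were trimmed with Trim Galore, aligned to mm10 with STAR and counted with featureCounts, and the authors deposited raw read counts per gene, with no normalization. The strand setting and annotation release are not given in the sources used here. Counts of transposable elements were not used. Of 24116 gene identifiers, 24061 were matched to a symbol.

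From the deposited counts, 14896 genes that passed filterByExpr were fitted with edgeR 4.0.16 in R 4.3.3 by its quasi-likelihood test after TMM normalization, on a model of genotype alone, with Benjamini-Hochberg adjustment over all of them. With 2 against 2 libraries a two-sided exact permutation test cannot go below a p of 0.333 and was not used. RPKM used merged exon lengths of GENCODE M21 (GRCm38). Alternatives were DESeq2 1.42.0, its size factors, library totals, other filters, the replicate block and each library left out.

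The 10 genes and all lists were chosen with earlier results of these data known. Named genes were the 10 genes, Terc, partners chosen by name, up to 4 genes in each direction of each list with the smallest p, defining feeder genes and genes that overlap a member. The values of 1 gene that this rule names are not reported here, though list counts include it. Amn, Lamb2 and Fgfr3 were named after their values were seen. Figures were drawn with matplotlib 3.10.9. Intervals cover 95%, and p-values measure the spread between libraries of 1 line per genotype.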

Additional observations from a re-analysis of the deposited data

How the results depend on the processing

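The calls of Gata4, Gata6, Dab2, Lama1 and Col4a1 held in every alternative run in which they passed the filter, with highest adjusted p of 0.0338, 0.00251, 3.22e-07, 0.0118 and 0.0171. Sox17, Sox7 and Foxa2 had under a mean of 50 counts and gave no value under that filter, and depth limits what can be said of them. Of 97 alternative values of the 10 genes, 91 kept their direction and side of the threshold, 5 changed sign and 1 (Lamb1 without G3 Terc-/- replicate 1) passed it, and the cause was not tested. Of 742 values of other genes, 668 kept both, 54 no longer passed, 11 newly passed and 9 changed sign. By the study's rule, 0 of the 10 genes were higher and 2 lower. DESeq2 called 2076 of all genes higher and 2290 lower, against 3238 and 3241 in the main edgeR fit, so fewer genes passed at large. In DESeq2 the numbers called lower were 2 for basement membrane partners, 3 for collagen and laminin assembly, 0 for family relatives, 3 for visceral endoderm, 1 for PDGF genes and 0 for feeder markers, and the numbers called higher were 2 for visceral endoderm and 4 for feeder markers. With a mean of at least 50 counts, 0 family relatives and 3 visceral endoderm genes were lower and 1 visceral endoderm gene higher, and with library totals in place of TMM 0 feeder markers were lower. Of all genes, the filter of 50 counts gave 2930 higher and 2860 lower, and library totals gave 2786 lower.

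With each library left out in turn, 1 library remained in a genotype and was assumed to vary like the others. Fewer of all genes were called in either direction in each of these fits, and the drop was largest without a WT library. The list counts of these fits, here and above, cannot be read against the 21.7% and 21.8% of the main fit. The log2 fold change ran from -0.0815 to 0.12 for Sox7, from -0.44 to 0.12 for Pdgfra, from -0.16 to 0.00379 for Lamb1, from -0.0258 to 0.10 for Sparc, from -0.0256 to 0.14 for Amn, from -0.18 to 0.59 for Col1a1, from -0.18 to 0.58 for Col1a2, from -0.10 to 0.69 for Postn and from -0.47 to 0.0160 for Tagln. The numbers called higher ran from 1 to 7 for basement membrane partners, 1 to 3 for assembly genes, 3 to 5 for parietal endoderm, 2 to 3 for visceral endoderm, 1 to 2 for PDGF genes, 1 to 4 for FGF genes and 4 to 19 for feeder markers. The numbers called lower ran from 3 to 5 for basement membrane partners, 1 to 8 for assembly genes, 1 to 1 for family relatives, 3 to 5 for visceral endoderm, 1 to 2 for PDGF genes, 3 to 7 for trophectoderm and 0 to 3 for feeder markers. Whether same-numbered replicates share more than a number cannot be settled with 2 pairs. The correlation of their deviations was 0.110 over all genes tested. Summed feeder markers in replicate 1 were 1.23 times those of replicate 2 in WT and 1.17 times in G3 Terc-/-. With the replicate number as a block, 1 of the 10 genes was higher and 4 lower, as without it, and of all genes 3551 were higher and 3583 lower. The block brought Col1a1 (0.16, adjusted p 0.0287 in edgeR) and Col1a2 (0.20, adjusted p 0.0115) past the threshold, and 14 feeder markers were then higher against 10 without it.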

Other observations

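Of 12 listed genes of definitive endoderm and mesendoderm, 10 were tested, with a median log2 fold change of 0.84. By adjusted p in edgeR, 5 were higher in G3 Terc-/- ESCs and 0 lower, against 21.7% and 21.8% of all genes tested. Eomes, a T-box factor of mesendoderm and trophectoderm, rose from 8.43 and 9.07 CPM in WT to 27.5 and 26.6 CPM in G3 Terc-/- (log2 fold change 1.63, SE 0.10, adjusted p 5.27e-17 in edgeR). T, which encodes brachyury, rose from 4.35 and 3.79 to 7.17 and 7.13 CPM (log2 fold change 0.81, adjusted p 0.000126 in edgeR), and Cxcr4, a chemokine receptor gene of definitive endoderm, rose from 1.10 and 1.49 to 3.97 and 3.51 CPM (log2 fold change 1.53, adjusted p 5.40e-06 in edgeR). Trh, a hormone gene on chromosome 6 (chr6:92242061-92244650), rose from 157 and 147 to 796 and 859 CPM and made up most of the list's summed CPM, which was 182 and 172 in WT and 847 and 908 in G3 Terc-/-. The part of its place on chromosome 6 in the Trh value was not tested. Sox17 and Foxa2, which definitive endoderm shares with primitive endoderm, did not pass the test. The genes of this list were called in the same number with each library left out.

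Of 10 listed trophectoderm genes, 9 were tested, with a median log2 fold change of -0.84. By adjusted p in edgeR, 1 was higher and 5 lower in G3 Terc-/- ESCs, against 21.7% and 21.8% of all genes tested. Krt7, a keratin gene of trophoblast, fell from 13.0 and 12.2 CPM in WT to 1.22 and 1.53 CPM in G3 Terc-/-, 9.22-fold lower (log2 fold change -3.21, SE 0.19, adjusted p 3.84e-18 in edgeR). Hand1, a factor of trophoblast giant cells, fell from 3.94 and 4.19 to 1.35 and 0.713 CPM (log2 fold change -1.94, adjusted p 1.48e-07 in edgeR), and Plet1, a trophoblast progenitor gene, fell from 19.6 and 21.8 to 10.2 and 12.5 CPM (log2 fold change -0.87, adjusted p 1.13e-08 in edgeR). The gene that was higher was Eomes. Without WT replicate 2, 3 genes of the list were called lower.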
